A study of Mus musculus with 12 samples.

Results

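The miRNA pool of the untreated mouse carotid artery was described from quantitative PCR on 6 arteries of the 12 in the series. Every miRNA assay of the main table was used, which is 517 assays by name (miR or let), 513 of them with values. The donors were female apoE-/- mice, 6 to 8 weeks old, which lack apolipoprotein E and develop atherosclerosis on a fatty diet. All received a high-fat diet (21% fat and 0.15% cholesterol) for 6 weeks after surgery on the opposite side. The left carotid artery of these mice had been partially ligated, and the right one, described here, had not been touched. The 6 untreated arteries are called control 1 to control 6, after their replicate numbers, and are separate biological replicates per the series text. No healthy, non-hyperlipidaemic artery was part of the design, so these values describe an unligated artery of a hyperlipidaemic animal.

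MicroRNAs are short RNAs that bind messenger RNAs and lower their output. Each is cut from a hairpin precursor, of which usually 1 arm (the guide) is loaded into Argonaute and the other (the star, or passenger, strand) is mostly lost. Targets are read mainly by the seed, bases 2 to 8 of the mature RNA, so miRNAs with the same seed form a family. The wall of a carotid artery is mostly contractile smooth muscle, lined by endothelium and wrapped in a fibrous adventitia with nerves and some leukocytes. The miR-143 and miR-145 pair marks smooth muscle there and miR-126 endothelium.

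The mature sequences of abundant miRNAs whose assay names were matched to RefSeq are shown first, because the results are ordered by seed family. A missing match does not show that RefSeq lacks the sequence. Bases 2 to 8 are in capitals, sequences run 5′ to 3′, and they were taken from RefSeq (GRCm38.p6).
miR-24: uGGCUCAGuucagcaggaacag
miR-126-3p: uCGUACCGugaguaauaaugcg
miR-30c: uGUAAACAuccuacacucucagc
miR-30a: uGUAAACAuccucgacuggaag
miR-30e: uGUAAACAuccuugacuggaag
miR-26a: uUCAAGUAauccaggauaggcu
miR-26b: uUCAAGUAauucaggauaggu
miR-16: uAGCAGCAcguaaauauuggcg
miR-195: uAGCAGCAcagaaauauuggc
let-7e: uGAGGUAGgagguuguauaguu
let-7c: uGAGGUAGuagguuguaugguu
miR-125b-5p: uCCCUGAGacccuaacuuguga
miR-191: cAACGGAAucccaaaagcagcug
miR-19b: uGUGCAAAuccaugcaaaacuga
miR-29a: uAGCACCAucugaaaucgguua
miR-193b: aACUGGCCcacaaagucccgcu
On GRCm38.p6, mature miR-24 lies at chr13:63301251-63301272 and at chr8:84208875-84208896, both on the plus strand, so its assay cannot tell the 2 loci apart. The same holds for miR-30c at chr1:23291714-23291736 (plus) and chr4:120769584-120769606 (minus), and for miR-16 at chr14:61631936-61631957 (minus) and chr3:69009918-69009939 (plus). Mature miR-126-3p has 1 locus, chr2:26591402-26591423 (plus), within the endothelial gene Egfl7. In all, 391 of the 513 assays matched a mature sequence, 231 of them among the assays detected in all 6 arteries, and they carried 317 different seeds.

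Levels were read as the threshold cycle (Ct), the PCR cycle at which product crosses a threshold, which falls by 1 when the RNA doubles. A well listed at 40 did not amplify, and an assay was called detected at a Ct below 35. Between 317 and 341 assays were detected per artery, 293 of 513 (57.1%) in all 6, 90 in some and 130 (25.3%) in none. Of 3078 wells, 1067 stood at 40 and 26 lay between 35 and 40. Mean Ct of the 293 ran from 13.9 to 33.5 with a median of 25.8. The bulk of them were in the middle of that range, with 17 below 20, 107 from 20 to 25, 143 from 25 to 30, and 26 at 30 or above. To set assays side by side, the share of an assay was taken as 2 to the power of minus Ct over the sum of all detected assays of the same artery, in percent. This assumes that each assay doubles its product per cycle, which the tables cannot show, so ranks between assays are as good as that assumption.

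Control 2 stood apart from the others, and controls 4 to 6 were closer to each other than to controls 1 to 3. The split by number was seen earlier in these data and is no label of the study. Across the 293 assays, Pearson correlations of Ct were 0.985 to 0.990 within controls 4 to 6, 0.922 to 0.969 within controls 1 to 3, and 0.884 to 0.957 for pairs with control 2. These are descriptions over assays, and assays are not replicates. The 9 pairs of arteries from different sets had 0.884 to 0.964. Control 1 lay between the sets, at 0.953 to 0.964 with controls 4 to 6, 0.969 with control 3 and 0.922 with control 2. Where the values of controls 1 to 3 and 4 to 6 did not overlap, both are given below for the shares of the main miRNAs, families and lists and for a number of arm differences. The 2 sets are compared as values only, with no test.

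The artery's miRNA pool was dominated by miR-145, the smooth muscle miRNA that holds these cells in their contractile state. Its share was 41.9 ± 14.4% (SD, n = 6), with a lowest value of 19.2% in control 2, a median of 47.9% and a highest of 55.4% in control 4. It ranked first in 6 of 6 arteries. Its mean share was 46.5% without control 2, 31.5% in controls 1 to 3 and 52.3% in controls 4 to 6. The Ct behind it was 14.7 in control 2 and 13.0 in control 1, the highest and the lowest of the 6. miR-24, which is processed with miR-23 and miR-27, came next with 9.05 ± 3.07% (range 6.83 to 14.6%), and it ranked 2 or 3 in each artery.

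**Figure D1:**
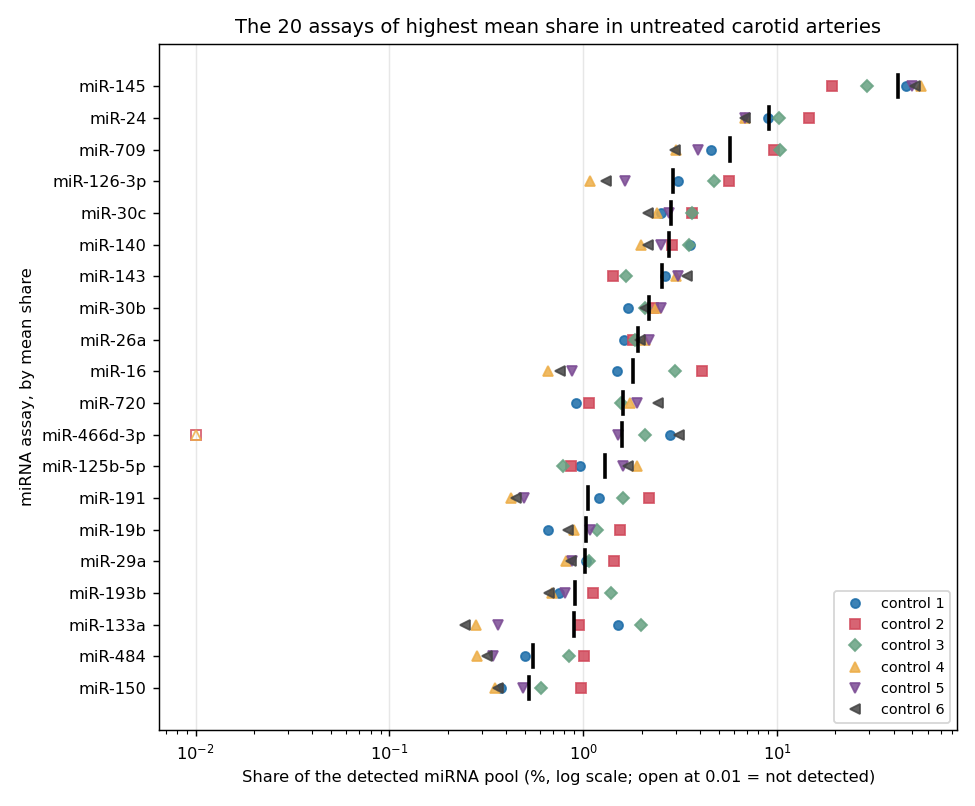
Share of the detected miRNA pool (percent, log axis) of the 20 assays with the highest mean share; each symbol is 1 untreated artery and the black bar is the mean of 6. miR-145 lies right of all other assays in each artery, and miR-466d-3p is open at 0.01 in controls 2 and 4, where it was not detected.

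A few assays thus held most of the signal. The highest 2 assays summed to 51.0 ± 11.5% of the pool, the highest 10 of each artery to 75.3 ± 5.5%, and the highest 20 to 85.2 ± 3.3%. The number of assays needed for 90% of the pool was 35 over the mean shares and 26 to 45 by artery, with 45 in control 2. The number for 50% of the pool ran from 1 in controls 4 and 6 to 5 in control 2. All remaining detected assays of an artery shared the last 10% of its signal.

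**Figure D2:**
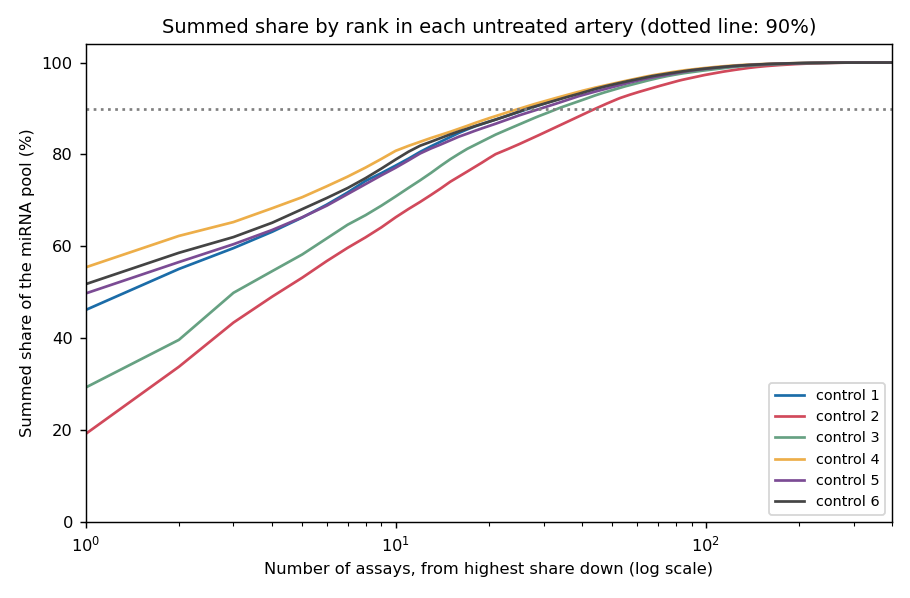
Summed share of the miRNA pool (percent) against the number of assays, counted from the highest share down (log axis), 1 line per untreated artery, with 90% dotted. Control 2 rises most slowly and reaches 90% at 45 assays, while control 4 gets there at 26.

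Below miR-145, miR-24 and miR-709 the order was loose. miR-709 held 5.74 ± 3.37%, from 2.96 to 10.4%, with controls 2 and 3 near the top of that range. Then came 7 assays between 1.8 and 3%: miR-126-3p of the endothelium (2.92 ± 1.91%), miR-30c (2.85 ± 0.63%), the cartilage-enriched miR-140 (2.76 ± 0.67%), miR-143 of smooth muscle (2.54 ± 0.82%), miR-30b (2.18 ± 0.29%), miR-26a (1.92 ± 0.20%) and miR-16 (1.81 ± 1.42%). Of the 19 neighbouring pairs among the highest 20 assays, 3 kept their order in 6 of 6 arteries and 4 differed by more than the SD of their difference. The 3 were miR-145 over miR-24, miR-709 over miR-126-3p and miR-30b over miR-26a. miR-126-3p and miR-30c, in contrast, were in that order in 3 of 6 arteries, as were miR-140 and miR-143.

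The rest of the 20 held between 0.5 and 1.6% each. miR-720, since regarded as a piece of a transfer RNA and not a miRNA, had 1.60 ± 0.55%. miR-466d-3p had a mean of 1.59% from a Ct of 17.1 to 18.7 in controls 1, 3, 5 and 6 and a Ct of 40 in controls 2 and 4. The gap between these arteries was over 20 cycles, so the mean describes neither kind of artery. Whether the wells at 40 were failed reactions was not tested. miR-125b-5p (1.30 ± 0.48%), miR-191 (1.06 ± 0.73%), miR-19b (1.03 ± 0.31%), miR-29a (1.02 ± 0.23%) and miR-193b (0.906 ± 0.293%) followed. The list closed with the muscle miRNA miR-133a (0.892 ± 0.732%), miR-484 (0.550 ± 0.306%) and the lymphocyte miRNA miR-150 (0.526 ± 0.239%).

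For 14 of the 20 the shares of controls 1 to 3 and 4 to 6 did not overlap, with 9 higher in controls 1 to 3 and 5 in controls 4 to 6. No such count was made over all detected assays, so whether the 20 differ in this from the rest is not known. The split was not limited to the 20. Of the 293 assays detected in all 6, 122 differed by more than 1 (log2, relative to their mean) between the 2 set means. The mean shares in controls 1 to 3 and then 4 to 6 were 11.3 and 6.84% for miR-24, 8.18 and 3.29% for miR-709, 4.49 and 1.34% for miR-126-3p, and 3.31 and 2.22% for miR-140. For miR-16 they were 2.86 and 0.765%, for miR-191 1.66 and 0.457%, for miR-29a 1.18 and 0.851%, for miR-133a 1.49 and 0.296%, and for miR-484 0.786 and 0.315%. The 5 that were higher in controls 4 to 6 were miR-145, miR-143 (1.91 and 3.18%), miR-26a (1.76 and 2.08%), miR-720 (1.19 and 2.02%) and miR-125b-5p (0.873 and 1.73%). Shares add up to the whole pool, so 1 share can fall where another rises. Relative to the mean of the 293 assays (log2), miR-24 and miR-29a each had an SD of 0.16 over the arteries, among the smallest.

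Summed by seed, the large family was miR-30, whose members share the seed GUAAACA. The 6 assays of the family were detected in every artery and made up 5.80 ± 0.79% of the pool, from 4.94 to 6.81%. miR-30c alone gave 48.8 ± 5.2% of the family, ahead of miR-30b, miR-30a (mean Ct 20.4), miR-30e (21.6), miR-30d (22.5) and the brain-enriched miR-384-5p (26.0). The families of miR-145, miR-24, miR-709, miR-126-3p, miR-140 and miR-143 each had 1 assay here, so their shares are those above.

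The next families were close to each other in size. The miR-15/16 family (seed AGCAGCA), which restrains the cell cycle, held 2.22 ± 1.41% over 6 assays, 75.2% of it miR-16, and ran from 1.02 to 4.52%, with means of 3.27% in controls 1 to 3 and 1.17% in controls 4 to 6. Its other members were miR-195 (mean Ct 21.1), miR-497 (23.8), miR-15a (24.0), miR-15b (24.1) and miR-322 (25.8). The miR-26 family (seed UCAAGUA) held 2.18 ± 0.17%, with 88.1% from miR-26a and the rest from miR-26b, and had the narrowest range, 1.88 to 2.40%. The let-7 family (seed GAGGUAG), which holds cells in a differentiated state, held 2.06 ± 0.41% over 9 assays, with means of 1.79% in controls 1 to 3 and 2.34% in controls 4 to 6.

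Within let-7 no member dominated. let-7e led with 25.7 ± 6.5% of the family, at a mean Ct of 20.2, and let-7c followed at 20.3. let-7b (21.0), let-7i (21.6), let-7a (21.7), let-7d (21.8), let-7g (22.5) and let-7f (23.1) lay within 3 cycles of let-7e. miR-98, which has the same seed, was not detected in any artery. The let-7 sum was close to that of single miRNAs such as miR-143 or miR-30b. Smaller families were miR-125 (1.40 ± 0.45%, 91.8% of it miR-125b-5p, higher in controls 4 to 6 without overlap), miR-29 (1.08 ± 0.26%, 94.6% of it miR-29a, means 1.26% in controls 1 to 3 and 0.894% in controls 4 to 6), miR-19 (1.06 ± 0.32%) and miR-17 (0.741 ± 0.378% over 6 assays).

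Among assays with a matched sequence, the abundant ones leaned to a 5′ uracil, the base that Argonaute prefers there. miR-145, which held 41.9% of the pool, had no matched sequence and is outside these counts, as are miR-709, miR-140 and miR-143. A U was the first base of 68% of the 50 highest assays with a sequence, of 44.6% of the 231 detected in all 6 arteries and of 33.3% of the 96 detected in none. GC content, at a median of 45.5% in each of these sets, did not follow Ct (Pearson -0.01, Spearman 0.01 over 231 assays). Detection differed along the numbering, which broadly follows the order of discovery, without a steady fall. Of the assays numbered 1 to 99, 84.9% were detected in all 6 arteries, and of those from 100 to under 200, 77.7%. The share was lowest from 200 to under 300 (32.1%), higher again from 300 to under 400 (59.5%), and 42.1%, 40% and 37.3% in the bins that start at 400, 600 and 700. Assays with a star in their name were detected in all 6 in 56.4% of 110 cases and the others in 57.3% of 403, at median Cts of 27.4 and 25.4.

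miRNAs cut from 1 transcript did not give equal signals, and the part of assay efficiency in this was not tested. miR-143 and miR-145 are made from the same primary transcript, yet miR-145 came 4.02 ± 0.17 cycles (SD, n = 6) before miR-143, or 16.3-fold higher, with differences from 3.75 to 4.20 cycles. This gap was steady although the share of either miRNA moved with the artery. miR-24 stood 5.85 ± 1.04 cycles before miR-27b and 7.41 ± 0.98 before miR-23b. Its assay reads the loci on chromosomes 13 and 8 together, so these gaps are not those of 1 transcript. The gap to miR-23b was 7.72 to 8.75 cycles in controls 1 to 3 and 6.54 to 6.60 in controls 4 to 6, so these 2 sets did not overlap. miR-222 came 3.49 ± 1.17 cycles before miR-221, its neighbour on the X chromosome.

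RefSeq places the hairpins of the matched assays in 39 groups with gaps of 10 kb or less, and 27 of these had at least 2 hairpins with an assay detected in all 6 arteries. Using the brightest assay of each hairpin, the highest and lowest members differed by a median of 2.68 cycles, under 2 cycles in 10 groups and over 4 in 12. The smallest span was 0.38 cycles, for miR-192 and miR-194 on chromosome 19. The widest was 9.50 ± 0.57 cycles, at chr14:115043671-115044506, between miR-19b (mean Ct 19.2) and miR-18a* (28.7) of the proliferation-linked miR-17 cluster. The other arm, miR-18a, had a mean Ct of 28.9. miR-19b also lies on the X chromosome, so its Ct is not that of this cluster alone. Spans with other miRNAs of 2 loci, such as miR-24 and miR-16, carry the same limit. How far assay efficiency sets such gaps was not tested.

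Marker miRNAs were grouped into 15 lists by the tissue or cell they are known for, with 102 assays in all. Of these, 42 were detected in all 6 arteries, 20 in some and 40 in none, against 57.1% of all assays detected in all 6. In RNA of a whole artery, fewer cells of a kind and less RNA per cell cannot be told apart.

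**Figure D3:**
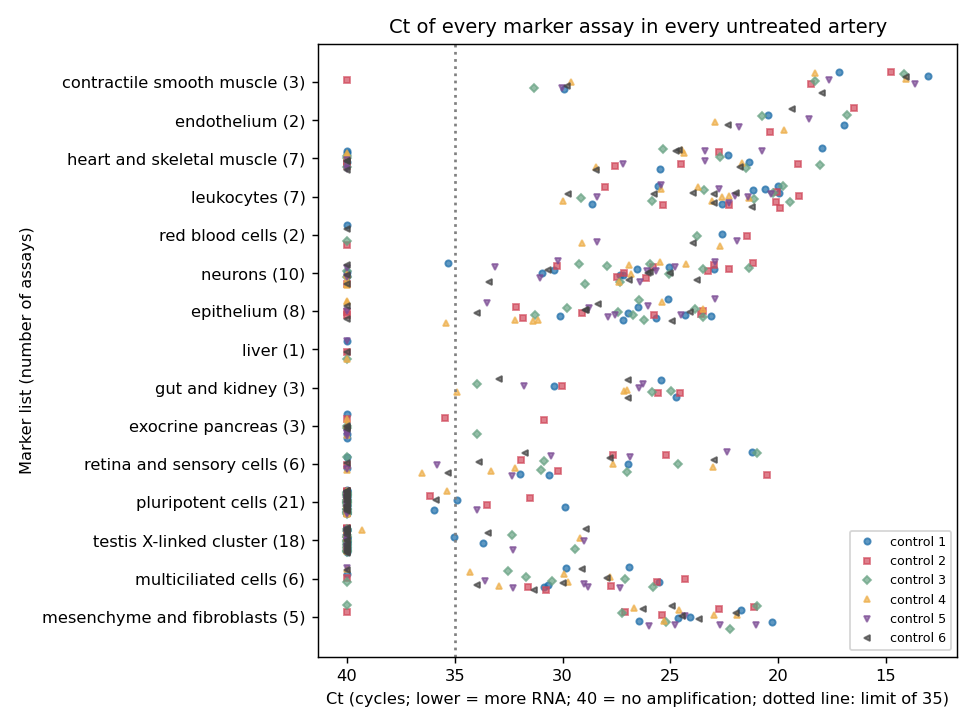
Ct (cycles, more RNA to the right) of every assay of the 15 marker lists in each of the 6 untreated arteries, with the detection limit of 35 dotted and wells without amplification at 40. Endothelial assays and most smooth muscle and leukocyte assays lie right of 30, while the pluripotent, testis and liver assays lie almost wholly at 40.

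The defining markers of an artery were present. The smooth muscle list held 44.5 ± 15.2% of the pool, nearly all from miR-145 and miR-143, and its remaining assay, miR-145*, had a Ct of 29.6 to 31.3 in 5 arteries and 40 in control 2. The endothelial list, the 2 arms of miR-126, held 3.15 ± 2.01%. Its share was 3.36 to 6.04% in controls 1 to 3 and 1.20 to 1.82% in controls 4 to 6, without overlap. The smooth muscle share went the other way, 20.6 to 48.8% in controls 1 to 3 and 52.8 to 58.4% in controls 4 to 6. The endothelial level, which is no share, also differed without overlap, at a median over the list of 6.16 to 6.42 in controls 1 to 3 and 5.19 to 5.59 in controls 4 to 6 (log2, relative to the mean of the 293 assays).

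Muscle markers split by kind. miR-133a (mean Ct 19.9), miR-133b (23.0) and miR-1 (23.7), which are found in striated muscle and in part in smooth muscle, were detected in all 6. So was miR-206 (27.1). miR-208, miR-208b and miR-499, which sit inside myosin heavy chain genes of heart and slow muscle, were at 40 in all 6. miR-133a stood 7.21 ± 0.75 cycles before miR-206, which is specific to skeletal muscle, and 3.81 ± 1.18 before miR-1. The share of the list was 1.06 to 2.27% in controls 1 to 3 and 0.314 to 0.482% in controls 4 to 6.

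Blood cell miRNAs were present in every artery. All 7 leukocyte assays were detected in all 6, with a summed share of 1.45 ± 0.71%. It was 1.21 to 2.57% in controls 1 to 3 and 0.858 to 1.11% in controls 4 to 6, without overlap. miR-150 of lymphocytes had a mean Ct of 20.3, miR-146a 21.1, the myeloid miR-223 21.2, miR-342-3p 22.1, miR-142-3p 22.7, miR-155 25.6 and miR-142-5p 29.0. miR-451 of red blood cells had a mean Ct of 22.7 and ranged from 21.5 to 24.0, while miR-486 was found in controls 4 and 5 alone (Ct 29.1 and 28.4). The artery's mesenchymal miRNAs miR-199a-3p (21.2), miR-214 (22.7), miR-214* (24.9) and miR-199b* (26.6) were detected in all 6. miR-199a-5p had a Ct of 24.3 to 24.6 in 4 arteries and 40 in controls 2 and 3.

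Neuronal miRNAs were found as well, and control 2 had the most. Of 10 assays, 5 were detected in all 6 arteries: miR-9 (mean Ct 22.7), miR-9* (25.01), miR-129-3p (25.01), miR-137 (25.7) and miR-128a (27.2). The list held 0.462% of the pool in control 2, 0.277% in control 3 and 0.067 to 0.130% in the other 4. miR-137 had a Ct of 22.3 in control 2 and 25.9 to 27.2 elsewhere. miR-124, the most neuron-specific of them, had a Ct of 26.1 in control 2, 29.2 to 31.0 in controls 1, 3, 5 and 6, and 40 in control 4. miR-129-5p was found in controls 2 and 3 (27.4 and 29.0), miR-383 in controls 1, 2 and 3 (30.4, 25.8 and 27.4), miR-153 in controls 2, 5 and 6 (30.3, 33.1 and 33.4) and miR-219 in control 5 (31.0).

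Among epithelial miRNAs, miR-375 (mean Ct 23.4), miR-203 (24.4), miR-200c (27.5), miR-200b (28.8) and miR-205 (29.4) were detected in all 6. miR-141 was detected in 5 arteries, miR-200a in 3 and miR-429 in 2. The list's share stayed at 0.083 to 0.124%. miR-192 (25.8), miR-194 (26.2) and miR-215 (32.3), which are high in gut and kidney, were detected in all 6, at a mean of 0.0266% of the pool in controls 1 to 3 and 0.0140% in controls 4 to 6. In the retinal and sensory list miR-204, which is also found in other tissues, led at 21.8, followed by miR-182 (26.5), miR-183 (29.96) and miR-184 (32.1), with miR-96 in controls 2 and 3 and miR-211 in none. The list's mean share was 0.271% in controls 1 to 3 and 0.117% in controls 4 to 6, without overlap. Multiciliated cell miRNAs were faint (means of 0.0210 and 0.00623% by set, without overlap), with miR-34b-3p at 26.5, miR-34c* at 27.9, miR-34c at 29.4, miR-449c at 31.9, miR-449a at 32.5 and miR-449b at 40.

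Liver, pancreas, pluripotent cells and testis left almost no trace. These lists together had 43 assays, of which 0 were detected in all 6 arteries, 8 in some and 35 in none, and 15 of their 258 wells were below the limit. miR-122, which makes up most of the liver's miRNA, was at 40 in all 6. In the pluripotent list, 17 of 21 assays of the miR-290 and miR-302 clusters were in no artery, and the lowest Ct was 29.9, for miR-294 in control 1. In the testis list, 16 of 18 were in none, and the exceptions were miR-470* (Ct 32.3 to 33.7 in 4 arteries) and miR-878-3p (28.9 to 29.4 in 4 arteries). The mean share of that list was 0.000291% in controls 1 to 3 and 0.00156% in controls 4 to 6, without overlap. Of the pancreatic assays, miR-216a was in none, miR-216b in control 2 (30.8) and miR-217 in control 3 (34.0).

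The 2 arms of a hairpin could be compared inside each artery, without any scaling. Of 147 pairs of arm assays, 68 had both arms detected in all 6 arteries. In these, limma's moderated test of the Ct difference against 0, with Benjamini-Hochberg adjustment over the 68, called 63 pairs, which is 92.6%. With so many calls, the size and direction of a difference say more than the call. The median absolute difference was 3.42 cycles, 35 pairs differed by more than 10-fold and 14 by more than 100-fold, and in 59 pairs the same arm was higher in 6 of 6 arteries. In 37 pairs the differences of controls 1 to 3 and 4 to 6 did not overlap. Each such ratio also holds the ratio of the 2 assays' efficiencies.

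**Figure D4:**
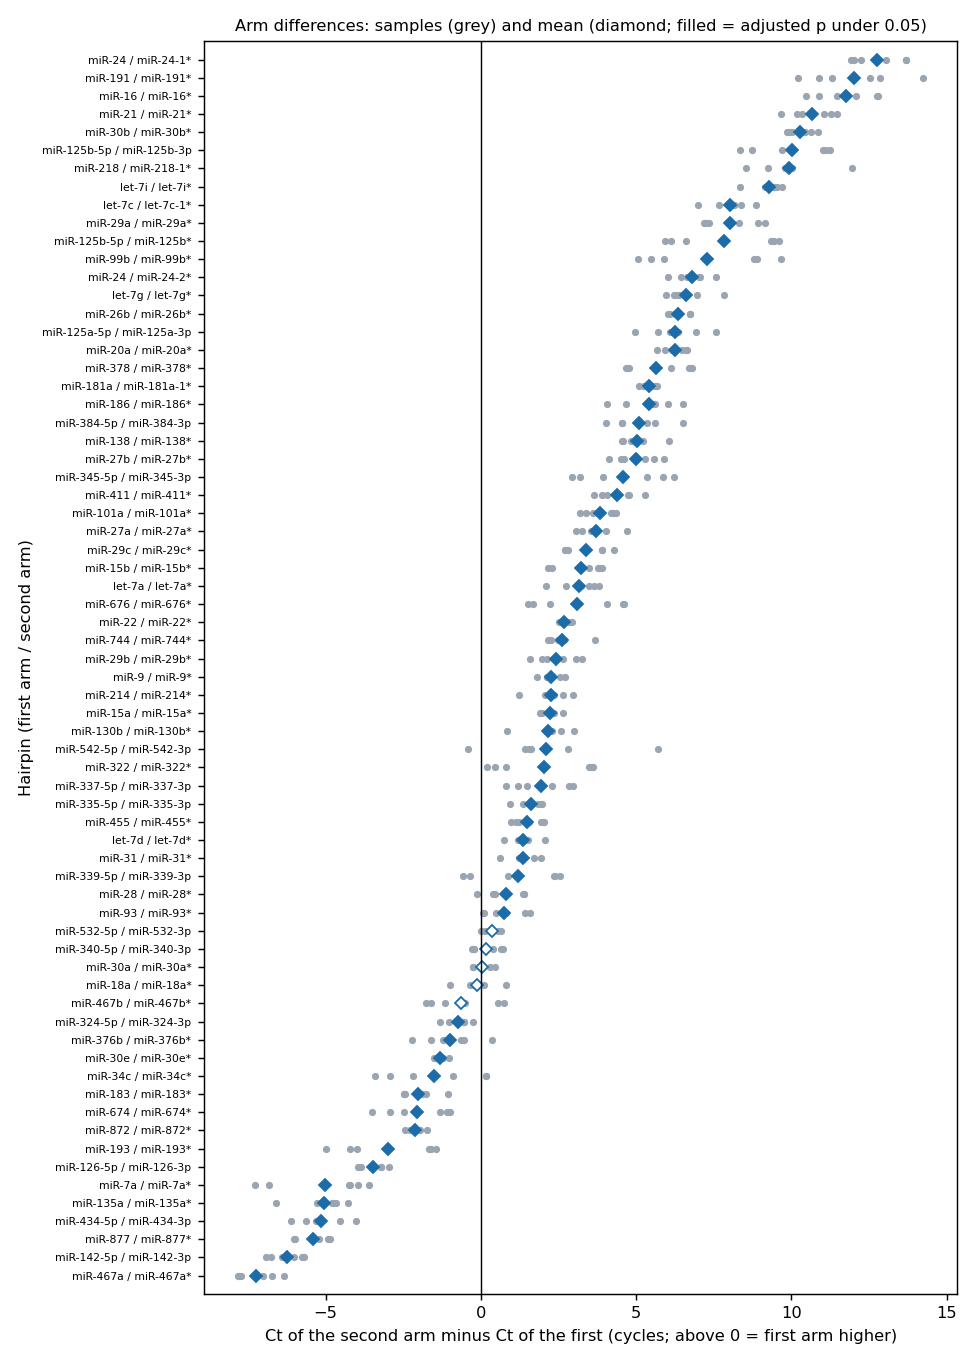
Ct of the second arm minus Ct of the first (cycles) for 68 hairpins with both arms detected in all 6 untreated arteries; grey points are arteries, diamonds their means, filled where limma's adjusted p was under 0.05. Most hairpins lie right of 0, where the first arm (unstarred or 5p) is higher, and 15 filled diamonds lie left of it.

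In general the arm named as the guide was the higher one. Of 54 pairs named with a star, the unstarred arm was called higher in 40 (74.1%) and the star arm in 11 (20.4%). Of 14 pairs named 5p and 3p, which marks no guide, 5p was called higher in 8 (57.1%) and 3p in 4 (28.6%). miR-24 exceeded miR-24-1* by a lowest of 11.9, a median of 12.6 and a highest of 13.7 cycles, and on average by 12.77 ± 0.30 (SE), with an adjusted p of 2.02e-09 in limma's fit. The unstarred miR-24 comes from 2 hairpins, so part of it belongs to miR-24-2*, which it exceeded by 6.80 ± 0.23 cycles. Other one-sided hairpins were miR-191 (12.01 ± 0.50 cycles), miR-16 (11.74 ± 0.35), miR-21 (10.66 ± 0.28), miR-30b (10.28 ± 0.21), miR-125b-5p over miR-125b-3p (10.02 ± 0.44), miR-218 over miR-218-1* (9.91 ± 0.40), let-7i (9.28 ± 0.22), let-7c over let-7c-1* (8.03 ± 0.26) and miR-29a (8.02 ± 0.33). Of these, the sets did not overlap for miR-191 (means 13.21 cycles in controls 1 to 3 and 10.80 in controls 4 to 6), miR-16 (12.54 and 10.95), miR-21 (10.06 and 11.26), miR-30b (10.63 and 9.92), miR-125b-5p over miR-125b-3p (8.92 and 11.12) and miR-29a (8.80 and 7.25). As with miR-24, the guides miR-16, miR-125b-5p, miR-218 and let-7c have 2 loci each. Their differences are therefore not the arm ratio of a single hairpin.

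A further 17 pairs had 1 arm in all 6 arteries and the other in none, and in each of them it was the first-named arm that was detected. If an undetected well held no more than a well at 35 would, miR-30c exceeded miR-30c-1* and miR-30c-2* by at least 17.2 cycles, let-7b its star arm by at least 14.0 and miR-139-5p miR-139-3p by at least 12.3. In 14 pairs neither arm was detected in any artery.

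In some hairpins the arm named with a star was the higher one. miR-467a* was higher than miR-467a by 6.35 to 7.81 cycles, a mean difference of -7.23 ± 0.26 (SE) with limma's adjusted p at 1.25e-08. These come from a large repeat-like miRNA cluster inside the Sfmbt2 gene. miR-877* was 42.6-fold above miR-877 (-5.41 ± 0.23 cycles), miR-135a* 33.3-fold above miR-135a (-5.06 ± 0.30) and miR-7a* 32.4-fold above miR-7a (-5.02 ± 0.53). For miR-7a the arteries ranged from -7.28 to -3.59 cycles. The names 5p and 3p mark no guide. Among pairs so named, miR-142-3p was 76.4-fold above miR-142-5p, miR-434-3p 35.4-fold above miR-434-5p and miR-126-3p 11-fold above miR-126-5p. Their means were -5.82 and -6.69 cycles by set for miR-142, -5.69 and -4.60 for miR-434, and -3.79 and -3.13 for miR-126, each without overlap. The difference of miR-193 and miR-193* averaged -1.57 cycles in controls 1 to 3 (-1.68 to -1.43) and -4.39 in controls 4 to 6 (-4.98 to -3.98), so the mean of 6, -2.98, describes neither set. For miR-674* the means were -2.97 and -1.13 cycles by set. The star arm was also called higher for miR-872* (-2.11 cycles) and miR-183* (-2.02).

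Sequences of both arms are shown for hairpins of each kind, with the seed in capitals (RefSeq, GRCm38.p6). They are miR-877 and miR-30e, whose star arm was higher, miR-30a, whose arms lay close together, and miR-21, whose guide was far higher.
miR-877: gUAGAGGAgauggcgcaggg
miR-877*: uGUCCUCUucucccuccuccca
miR-30a: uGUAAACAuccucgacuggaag
miR-30a*: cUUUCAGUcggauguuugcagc
miR-30e: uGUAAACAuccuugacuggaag
miR-30e*: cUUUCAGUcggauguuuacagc
miR-21: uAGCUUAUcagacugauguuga
miR-21*: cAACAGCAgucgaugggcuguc
miR-877 is cut from a short spliced intron at chr17:35960731-35960814 (minus strand, from the start of one arm to the end of the other) and does not pass through Drosha. The star arms of miR-30a and miR-30e share the seed UUUCAGU, which differs from that of the miR-30 guides.

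Arms of near equal level were the other extreme. miR-30a and miR-30a* differed by 0.04 ± 0.18 cycles (SE), with differences from -0.27 to 0.46 over the arteries and a limma adjusted p of 0.816. Both had a mean Ct of 20.4, so the star arm alone held 0.440% of the pool. In miR-30e the star arm was higher, by 1.31 cycles (2.48-fold, limma adjusted p 6.52e-05), and held 0.479%. Differences also missed the threshold for miR-18a (-0.13 ± 0.25 cycles), miR-340 (0.18 ± 0.22), miR-532 (0.34 ± 0.18) and miR-467b (-0.63 ± 0.38). For miR-340 the arteries of the 2 sets lay on opposite sides of 0, with means of 0.60 cycles in controls 1 to 3 and -0.24 in controls 4 to 6. These misses do not show equality of arms. The differences of miR-324 (-0.72 ± 0.20), miR-93 (0.75 ± 0.26), miR-28 (0.81 ± 0.26), miR-376b (-0.99 ± 0.33) and miR-339 (1.21 ± 0.48) were called with limma adjusted p from 0.008 to 0.039. The last 4 of these were lost when certain single arteries were left out. In limma's refits the adjusted p of miR-93 reached 0.077 without control 4 or 5, that of miR-28 0.056 without control 4, 5 or 6, that of miR-376b 0.057 without control 5 or 6, and that of miR-339 0.114 without control 1, 4, 5 or 6. By set, miR-28 had means of 0.24 and 1.38 cycles and miR-339 of -0.01 and 2.42, without overlap. The call of miR-34c* over miR-34c (-1.51 ± 0.52 cycles, means -2.83 and -0.19 by set) was lost in the same way without control 1, 2 or 3 (limma adjusted p up to 0.065), and miR-467b gained one without control 2 (0.047).

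For 51 of the 68 pairs both arms had a sequence. The higher arm began with U in 30 and the lower arm in 13. The number of A or U bases among the first 4, a rough measure of how loosely an end is paired, was greater in the higher arm in 16 pairs, equal in 19 and smaller in 16. The base at position 1 therefore differed between higher and lower arms in this description, while the count over 4 bases split evenly.

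The spread between arteries was measured on the level, minus the Ct after subtracting the artery's mean Ct over the 293 assays (log2 scale). The median SD over the 293 was 0.66 (quartiles 0.42 and 0.94). It was 0.54 without control 2, 0.47 in controls 1 to 3 and 0.21 in controls 4 to 6. Principal component 1 held 64.9% of the variance, with scores of -17.7, -10.1 and -0.8 for controls 2, 3 and 1 and of 8.6 to 11.3 for controls 4 to 6. Of the 293 assays, 122 differed by more than 1 between the means of these 2 sets, 65 of them higher in controls 4 to 6, and 21 by more than 2. Control 2 was the highest or lowest artery for 181 of 293. It was highest for 72 and lowest for 109, while each other artery was highest for 34 to 53 and lowest for 33 to 42.

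Fainter miRNAs varied more. The median SD was 0.51 at a mean Ct below 20, 0.55 from 20 to 25, 0.75 from 25 to 30 and 0.91 above 30. In controls 4 to 6 alone it was 0.17, 0.16, 0.26 and 0.53 in the same bands.

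**Figure D5:**
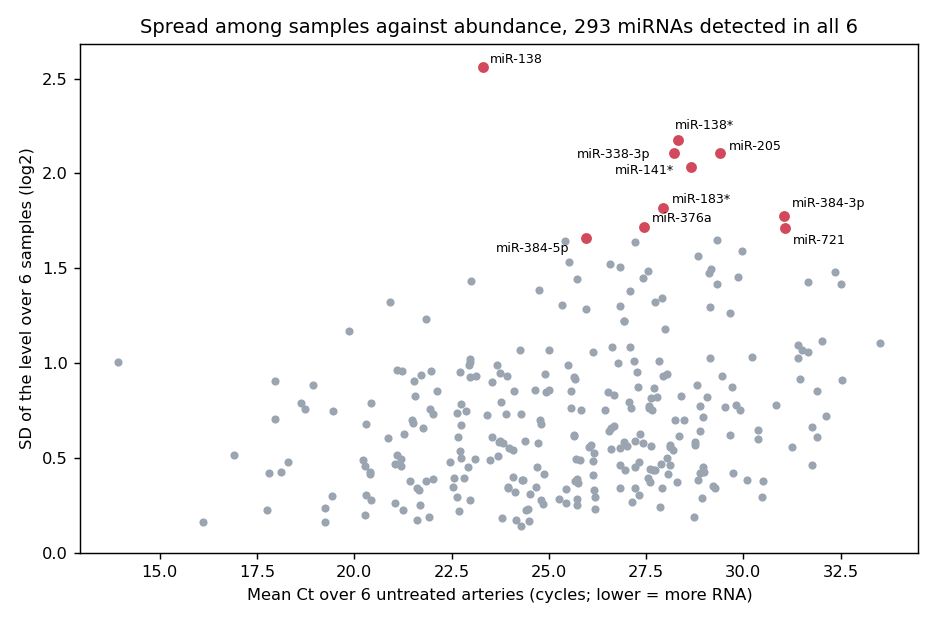
SD of the level over 6 untreated arteries (log2) against mean Ct (cycles) for the 293 miRNAs detected in all 6, with the 10 largest SDs in red. miR-138 stands alone at an SD of 2.56 among miRNAs with a mean Ct below 25.

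The steadiest miRNAs included abundant ones. miR-101a had an SD of 0.14 (levels 1.01 to 1.43), miR-29a 0.16 (6.12 to 6.61) and miR-24 0.16 (9.26 to 9.71). The 2 arms of miR-532 followed at 0.17 each, with miR-30e at 0.17, miR-877*, miR-92a and miR-467a at 0.19 and miR-150 at 0.20. miR-24 was thus among the steadiest on the level scale, although its share ran from 6.83 to 14.6%. Its highest share was in control 2, where that of miR-145, whose level had an SD of 1.00, was lowest.

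At the other end stood miR-138, enriched in brain. Its level was 6.72 in control 2, the median was 1.30 and the lowest -0.07, an SD of 2.56. Control 2 lay 5.33 above the mean of the other 5, whose SD was 1.51. Its star arm, miR-138*, had an SD of 2.18 and lay 4.08 higher in control 2, and the glial miR-338-3p had an SD of 2.11. miR-384-3p (1.78), miR-384-5p (1.66) and miR-376a (1.72) were also higher in control 2, by 2.82 to 3.14 over the mean of the others. The epithelial miR-205 (SD 2.11) and miR-141* (2.04) went the other way, 4.08 and 3.05 lower in control 2. miR-183* (1.82) and miR-721 (1.71) completed the 10. The neuronal list was also highest in control 2 (0.462% of the pool), and its part in these values was not tested.

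A separate kind of spread came from 36 assays with a Ct below 30 in at least 1 artery and no amplification in at least 1 other. Each artery had 14 to 21 of these wells at 40. The gap was wide in 8 of them, whose lowest Ct was under 25. miR-23a was at 40 in controls 1 to 3 and at 21.1 to 22.3 in controls 4 to 6, and miR-154 followed the same pattern at a fainter 29.9 to 30.6. miR-433 went the other way, at 22.0 to 25.04 in controls 1 to 3 and at 40 in controls 4 to 6, as did miR-383. miR-425 was at 40 in control 4 and at 22.7 to 24.9 in the others, and miR-330* at 40 in controls 4 and 6 and at 22.4 to 26.0 in the others. miR-150* was found in control 5 alone (24.97) and miR-485 in control 2 alone (24.4). No value in the tables tells a failed reaction from absent RNA.

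The mean levels of the control RNAs of the run also differed between the 2 sets, and overlap between the sets was not examined for them. Relative to the miRNA mean, U6 was 1.17 and snoRNA429 1.72 lower in controls 4 to 6 than in controls 1 to 3 (log2), and Y1 was 2.04 higher. snoRNA202, snoRNA135 and U87 differed by 0.40, 0.58 and 0.28 in the direction of Y1. Their SDs over the 6 arteries were 0.31, 0.41 and 0.26. Since shares and arm differences are formed inside an artery, they do not depend on which of these RNAs is the reference.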

How the data were processed

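Total RNA had been isolated with the mirVana kit, per the labels' protocols, and miRNAs were measured by quantitative PCR. The authors deposited raw threshold cycles, named score here because Ct has no fixed unit, per the file headers. Instrument and threshold are not given in the sources used. The deposited processed score was compared with the raw table over 513 assays and is the raw Ct less the average of snoRNA429 and U6 of that sample. A separate deposited run holds miR-99a, miR-100, miR-10a and miR-146b, which are blank in the main table. Only the 6 untreated samples, assigned by title, were used. The arteries are biological replicates by the series text, and their number (6) limits the precision.

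Detected was a Ct below 35. Shares used a doubling per cycle. Repeated rows of a control RNA were averaged. Arms and RefSeq sequences (GRCm38.p6) were matched by name, with old names mapped by hand. Arm differences were fitted with limma 3.58.1 (lmFit with an intercept, eBayes) in R 4.3.3, Benjamini-Hochberg adjusted and called at 0.05, after a test of the code on simulated data. All other results are descriptions made in Python 3.11.15 (numpy 2.4.6, pandas 2.3.3). Alternatives were other detection limits, amplification per cycle, scaling, single arteries left out, and controls 1 to 3 or 4 to 6 alone.

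Named miRNAs were the 20 highest by share, the assays of the 10 largest seed families, the 10 largest and 10 smallest arm differences and SDs, the marker lists, assays seen below 30 and at 40, and control RNAs. Members and lists were chosen with earlier results of these data known. Outside this rule, and picked with their values in view, are miR-221, miR-222, miR-23b, miR-27b, miR-18a*, miR-24-2*, all arm pairs whose star or 3p arm was higher or that lost a call with an artery left out, the smaller seed families (miR-125, miR-29, miR-19, miR-17), the groups of neighbouring hairpins, and the arm pairs given as bounds.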

Additional observations from a re-analysis of the deposited data

Results flagged for a closer look

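Outlying samples were sought with Dixon's ratio above 0.625 in the 6 arteries, over 110 values of named miRNAs, arm differences and pool measures. Chance alone marks about 1 in 20 such groups, and 1 was marked here. The level of miR-142-5p, a leukocyte miRNA, was -2.63 in control 5 and between -3.94 and -3.46 in the other 5 arteries.

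A signal also lies in the separate run, which no result above uses. There, 4 assays that are blank in the main table amplified in all 6 untreated arteries, with a mean Ct of 21.3 ± 0.8 (SD, n = 6) for miR-100, 26.1 ± 1.0 for miR-10a, 25.03 ± 0.7 for miR-146b and 21.2 ± 0.7 for miR-99a. miR-99a and miR-100 belong to one seed family, and their Ct was 0.88 ± 0.26 and 0.73 ± 0.21 cycles below that of snoRNA429 in the same run. U6 and snoRNA429 had mean Ct values of 18.7 and 22.0 there, against medians of 14.8 and 19.1 in the main run, so these 4 were given no rank or share.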

How the results depend on the processing

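No paired analysis was possible because 1 group enters and the arms are already compared within each artery. Counts of assays detected in all 6 (270 to 308) or none (128 to 162), the share of miR-145 (29.99 to 52.3%) and marker assays in all 6 (36 to 44) stayed within 1.5 times or 1 SD of the reported values in every alternative run. For mean shares, leaving out 1 artery or taking 1 set alone cannot move a value by 1 SD of the same 6 arteries. There the rule could not fail, although miR-145 held 31.5% in controls 1 to 3 and 52.3% in controls 4 to 6. Of 891 values compared, 840 were counted as the same. For 213 of these, all of single arm pairs, that meant an unchanged call, with an unchanged sign where called. The others were held to 1.5 times or 1 SD. Part of the 840 was fixed in advance and is no evidence of stability. Besides the shares by artery subset, the deposited values differ from raw Ct by a constant per artery, which cancels in a share. With 1 artery left out, assays detected in all numbered 293 to 300 and in none 133 to 138, the share of miR-145 was 39.2 to 46.5%, 30 to 36 assays made 90% of the pool, 42 to 44 marker assays were in all, the median SD was 0.54 to 0.68, and 59 to 63 arm pairs were called. Exceptions follow. At 1.8-fold per cycle 58 assays made up 90% of the pool, since a smaller step per cycle flattens all shares. At that step the let-7 family held 3.10%, above miR-15/16 at 2.65% and miR-26 at 2.58%, and the miR-17 family 1.20%. Single-assay shares moved by over 1 SD in 6 of 285 values and family shares in 9 of 150. At 1.8-fold these were miR-26a (2.19%), miR-29a (1.26%) and the miR-30 (6.62%), miR-29 (1.38%), let-7, miR-26 and miR-17 families, and at 1.9-fold let-7 (2.55%) and miR-26 (2.39%). The miR-26 family also moved to 2.38% with shares from the mean Ct and to 2.35% without miR-709 and miR-720. Assays left out of the pool had 0, and miR-466d-3p, not detected in all 6, also had 0 when shares came from the mean Ct. The highest 10 assays held 68.2% at 1.9-fold and 61.6% at 1.8-fold. With a limit of 32, the retinal list had 2 assays in all 6 and the multiciliated list 3. Scaling to U6 and snoRNA429 gave a median SD of 1.08, and controls 4 to 6 alone 0.21. Setting undetected wells to 35 called 105 of 115 arm pairs, as more were tested, and a test against 2 cycles called 40 of 68. In controls 1 to 3 alone the difference of miR-339-5p and miR-339-3p was -0.0103, a reversed sign, and the cause was not tested. Of 240 values for single arm pairs, 20 lost and 6 gained a call, the lost ones of miR-93, miR-28, miR-376b, miR-324 and miR-339. Leaving miR-709 and miR-720 out of the pool, an alternative added after seeing the data, put miR-145 at 44.9%, and counting only assays detected in all 6, also added, at 42.8%. The number of arteries, the unknown efficiency of each assay and wells at 40 limit what these values can show.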
